A study of Sus scrofa with 9 samples.

Results

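The genes described here are the cell cycle and DNA replication genes of developing additional molars, measured in tooth germs of Wuzhishan miniature pigs. They were chosen by symbol alone: cyclins A, B, D and E, genes named CDKN, numbered CDK and CDC genes, the MCM and ORC proteins of replication origins, SMC proteins, the DNA polymerases alpha, delta and epsilon, centromere (CENP), condensin (NCAP), BUB and AURK genes, and PCNA, MKI67 and TOP2A. Of 6765 genes that the array measured under a single symbol, 75 met this rule, with 106 of the 23999 probe sets tested. Each gene was represented by its brightest probe set, and 24 of the 75 had more than 1. No probe set carried the symbol MKI67, nor CDK1 or its older name CDC2, so these genes were not analysed here, and CDK6 was left out because each of its 2 probe sets lists the symbol more than once.

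RNA came from the germs of the mandibular additional molars at E50, E60 and E70, with 3 Affymetrix Porcine Genome Arrays per stage. By the study's histology the first additional molar (M1) was a cap at E50, a bell at E60 and a late bell at E70, and the second (M2) began to form by E60. All pigs were untreated embryos of this single breed, and whole germs were collected by stage and litter, so that epithelium, dental mesenchyme and surrounding tissue were measured together. By the study's methods, RNA for sequencing and arrays was extracted from pooled germs of a stage. Replicate arrays are labelled as biological without naming their litters. Whether the 3 arrays of a stage stand for separate pools, animals or litters is not stated, and p-values describe only the spread between these arrays.

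A dividing cell passes from G1, where D-type cyclins and CDK2 act against inhibitors such as the INK4 proteins and p27, into S phase, where the origin recognition complex and the MCM helicase license and open the DNA for the polymerases, and then into mitosis under cyclins A and B and the Aurora kinases. In tooth germs, growth of the dental epithelium and mesenchyme shapes the crown from cap to bell, while the enamel knots stop dividing and express inhibitors of the cycle. Expression of these genes is therefore a common readout of proliferation in a mixed tissue, but in such a mixture a smaller number of dividing cells and less RNA per cell cannot be told apart.

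The E50 arrays stood apart from the other 6, which touches every comparison with E50. The array background, taken as the 95th percentile of 23 probe sets that should detect no pig RNA, was 77.7 to 379 signal units for E50, 37.9 to 54.4 for E60 and 38.1 to 55.8 for E70. The ratio of the 3′ to the 5′ probe set of the control gene EF1A, which rises when transcripts are represented mainly by their 3′ ends, spanned 49.3 to 55.8 for E50, 1.42 to 1.56 for E60 and 1.35 to 1.47 for E70. Of the 75 members, 48 (64%) lay above background on all 3 arrays at E50, against 55.8% of all genes taken by their brightest probe set. At E60 the number was 73 (97.3%, against 81.8% of all genes), and at E70 it was 72 (96%, against 82.1%). The median SD of a member over the 3 arrays was 0.437 on the log2 scale at E50, 0.138 at E60 and 0.204 at E70. Stage and these array properties cannot be told apart for comparisons with E50, whereas E60 and E70 lay close together in background, EF1A ratio and detection.

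Between cap and bell the cell cycle genes did not move as a block: 9 of the 75 were called higher and 9 lower at E60 than at E50, and 57 were not called. A call means an adjusted p under 0.05 in limma, with Benjamini-Hochberg adjustment over all 23999 probe sets. The calls were 12% of the members in each direction, and the background over all probe sets was 7.85% higher and 10.6% lower. Over all 6765 genes, taken by their brightest probe set as the members were, it was 7.2% higher and 13.7% lower. Of the 9 higher calls 5 were of genes below background on all E50 arrays, and the 47 members above background on all 9 arrays had 4 higher and 8 lower, with a median change of -0.14. The median change of the members was 0.02 on the log2 scale and that of all probe sets was -0.18. By role, the 11 mitotic kinases, cyclins and checkpoint genes had 2 higher and none lower, with a median change of 0.59. The 10 centromere, condensin and topoisomerase genes likewise had 2 higher and none lower, with a median of 0.59. Only 6 of these 11 and 5 of these 10 lay above background on all E50 arrays, so both medians include changes from signals below it. The median log2 signal, averaged over arrays, was 8.99 at E50 and 8.94 at E60 for the mitotic genes, and 8.98 and 9.05 for the centromere group. The 13 G1 cyclins, kinases and inhibitors had 1 higher and 3 lower, with a median of -0.52, and the 17 licensing and replication genes had 3 in each direction, with a median of 0.11. The remaining 24, picked by name although their best known role lies elsewhere, had 1 higher and 3 lower.

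**Figure D1:**
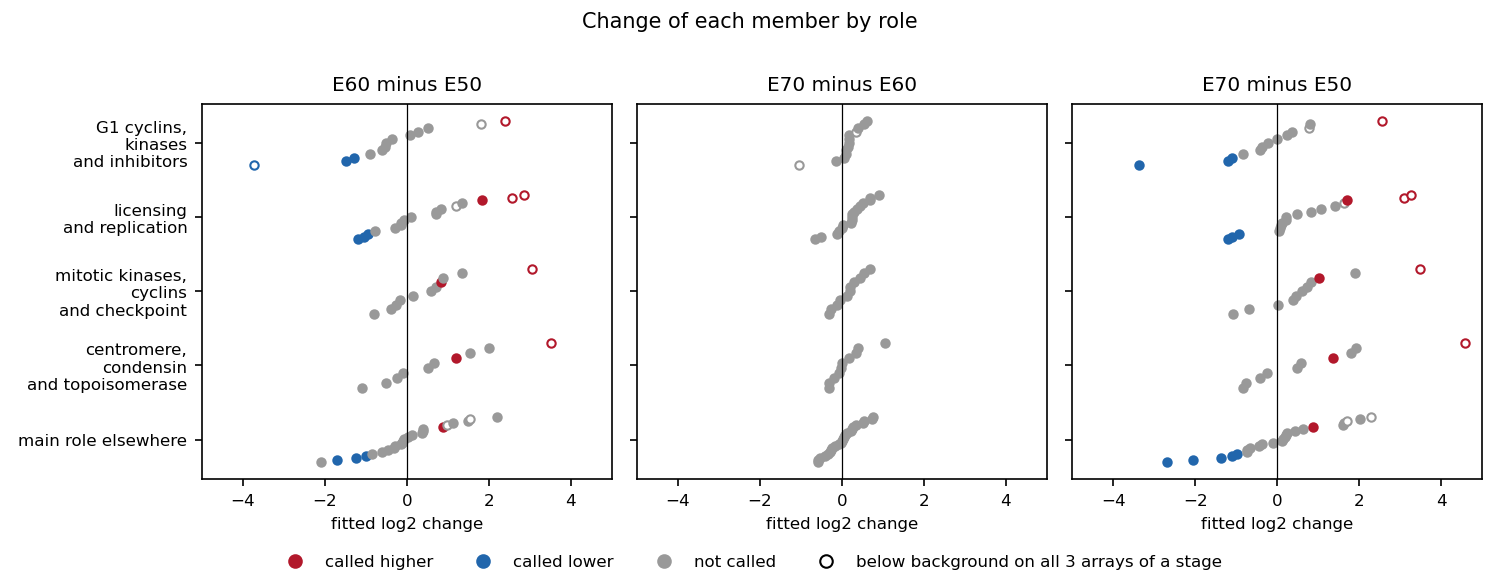
Fitted log2 change of each of the 75 members (one circle each, sorted within its role) in the 3 comparisons of stages, named above each panel as later minus earlier; red circles were called higher, blue lower and grey not called, and open circles lay below the array background on all 3 arrays of 1 of the stages, so that their fitted change is no estimate of size. Calls in both directions appear in the 2 comparisons with E50 (9 and 9 for E60, 9 and 11 for E70), and E70 minus E60 has none.

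This balance depends on how the arrays were scaled. The authors' scaling gave the E50 arrays higher medians than the others, and centring each array on its own median shifted the median change over all probe sets by 0.77 for E60 minus E50 and by 0.71 for E70 minus E50. With that centring 21 members were called higher and 2 lower at E60 than at E50, and 91.3% of the calls were then higher, against 50% with the deposited scaling. Quantile normalization, which gives all arrays the same distribution, gave 8 higher and 6 lower. Among the 18 members called with the deposited scaling, none changed direction under either scaling. Of all 75 members 22 changed sign with median centring, among them MCM2, MCM3, CDK2, AURKB, CDKN1A and POLE3, and 8 did so after quantile normalization. The median of the members stood above that of all probe sets by 0.19 with the deposited scaling and by 0.13 after quantile normalization, while with dim probe sets filtered out it stood below, at 0.04 for the members and 0.20 for all probe sets that passed. Only CENPT, CCNA2, POLE2 and CDKN2AIPNL kept their calls in both comparisons with E50 under all 18 alternatives, the removal of each array included. Of these, CENPT, CCNA2 and POLE2 lay below background on all E50 arrays. The highest floor tried, 32, was under that background, so the alternatives could not test calls that rest on such signals.

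**Figure D2:**
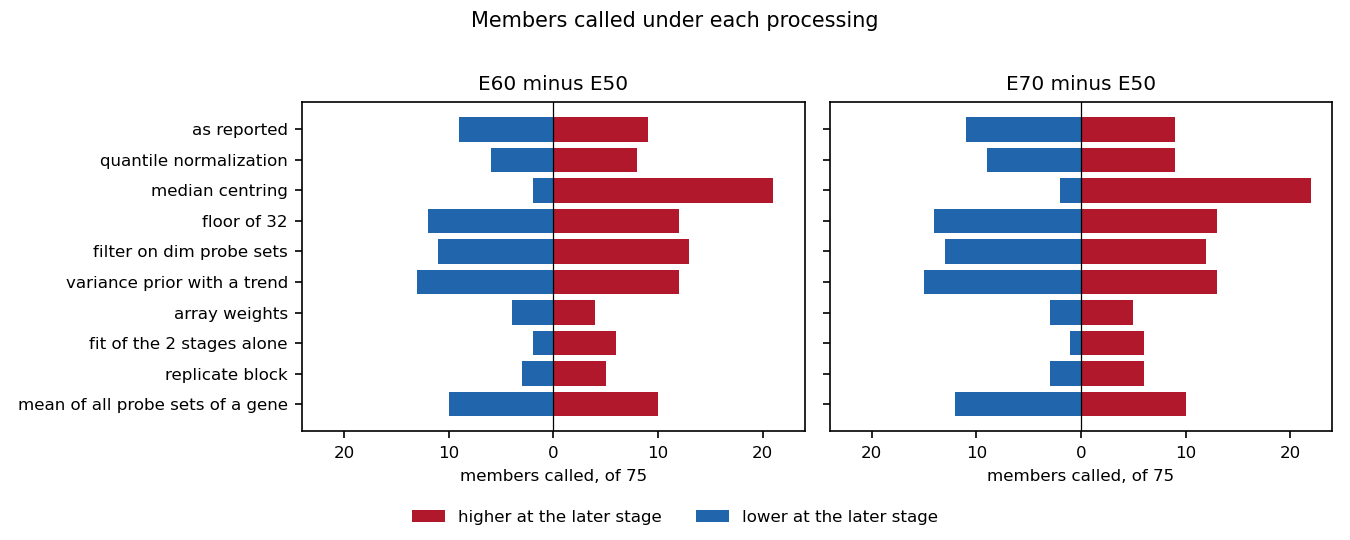
Number of the 75 members called higher (red, to the right) and lower (blue, to the left) at E60 than at E50 and at E70 than at E50, under the reported processing and 9 alternatives. Median centring gave 21 and 2 calls for E60 and 22 and 2 for E70, and the other alternatives gave between 4 and 13 higher and between 1 and 15 lower.

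Among G1 genes, CDC34 and 2 of the 3 measured INK4 inhibitors, CDKN2C and CDKN2D, were called lower after E50. CDKN2C encodes p18, an INK4 inhibitor of the D-cyclin kinases CDK4 and CDK6, and it read 212, 156 and 813 at E50, 31.1, 10.8 and 34.9 at E60 and 18.3, 18.5 and 71.1 at E70. It exceeded background on 2 arrays at E50, none at E60 and 1 at E70, and it was called lower at E60 than at E50 (adjusted p = 0.023 in limma). The E50 geometric mean was 6.28 times the E60 background, and 3.82 times without replicate 3 of E50. Because the E50 background was itself 77.7 to 379, these ratios are not minimum folds. CDKN2D, the INK4 inhibitor p19, had 727, 800 and 412 at E50, 199, 271 and 204 at E60 and 297, 283 and 292 at E70. Every E60 and E70 array lay below every E50 array, and CDKN2D fell by 1.48 (SE 0.30) on the log2 scale at E60 against E50 (adjusted p = 0.0173). CDC34, the ubiquitin-conjugating enzyme with which SCF ligases mark CDK inhibitors for degradation, read 1117, 1292 and 604 at E50, 369, 391 and 414 at E60 and 447, 394 and 421 at E70. It fell by 1.29 (SE 0.31) at E60 against E50 (adjusted p = 0.029), but 7 of the 9 fits with an array removed gave no call. Among those fits CDKN2C and CDKN2D lost theirs only without one of the E60 arrays, CDKN2C without any of the 3 and CDKN2D without replicate 1 or 3. Both calls also ended in the fit of those 2 stages alone and with quantile normalization. The CDKN2C call ended with array weights as well, and the CDKN2D call with median centring. At E70 against E50 the CDKN2D call ended in 13 of the 18 alternatives.

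CDK7, the kinase of the CDK-activating complex, was listed with the G1 cyclins, kinases and inhibitors and was the only 1 of that group called higher. Its signal lay below background on all E50 arrays (120, 32 and 18.3) and reached 176, 207 and 276 at E60 and 290, 211 and 238 at E70. The bound against the E50 background was small, at least 1.11-fold higher at E60 (adjusted p = 0.04) and under 1 without replicate 2 of E50 or replicate 3 of E60, and 8 of the 9 fits with an array removed gave no call.

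CCND2 (cyclin D2), the only D-type cyclin measured, showed no call in any comparison. Its signals were 2385, 2321 and 1892 at E50, 2293, 2436 and 2157 at E60 and 2860, 2209 and 2775 at E70. The stages overlapped, and the 95% interval of the change at E60 against E50 ran from -0.45 to 0.58 on the log2 scale. The inhibitors CDKN1A (p21) and CDKN1B (p27) were not called either by their brightest probe sets: CDKN1A had 395, 377 and 382 at E60 against 451, 530 and 736 at E50, and CDKN1B had 1113, 1181 and 1190 at E60 against 951, 856 and 1099 at E50. A dimmer CDKN1B probe set was called higher at E60 (change 1.83, adjusted p = 0.0336 in limma) and E70 (change 2.63, adjusted p = 0.00933) than at E50. It lay below background on all E50 arrays, so no minimum fold can be given, and another CDKN1B probe set was not called. Its call at E60 was lost in 5 of the 9 fits with an array removed. CDKN2B (p15), the third INK4 inhibitor, lay below background on every E50 and E70 array and just above it at E60, with 68.5, 59 and 54.7. CDKN2B was not called (adjusted p = 0.0623 for E60 against E50), but was called higher at E60 with a floor of 32, with the filter on dim probe sets, with median centring and in the fit of those 2 stages alone.

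With the deposited scaling, replication genes were called in both directions within the same complexes, but the falls lost their calls with median centring. ORC4, a core subunit of the origin recognition complex, had the largest called rise among members above background on all 9 arrays, with 699, 726 and 499 at E50, 2671, 2691 and 1583 at E60 and 2007, 2052 and 2152 at E70. All later arrays lay above all E50 arrays, the rise at E60 was 1.83 (SE 0.29) on the log2 scale (adjusted p = 0.00772), and the call held whichever array was removed but ended with array weights (adjusted p = 0.0578) and with the mean over its probe sets (adjusted p = 0.732). The other 2 ORC4 probe sets had fitted changes of the opposite sign, -0.09 and -0.79, with E50 signals above background on 2 arrays and 1 array. ORC6, the smallest subunit of the same complex, went the other way, with 1096, 1035 and 1016 at E50, 582, 510 and 549 at E60 and 521, 589 and 558 at E70. It fell by 0.94 (SE 0.19) at E60 against E50 (adjusted p = 0.0174), with no overlap between the stages.

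Subunits of DNA polymerase epsilon, the leading-strand polymerase, also differed in direction. POLE2, its second subunit, was below background at E50 (87.4, 51 and 45.6) and well above it at E60 (458, 419 and 401) and E70 (562, 400 and 564). It was at least 2.19-fold higher at E60 (adjusted p = 0.0023) and at least 2.59-fold higher at E70 than at E50 (adjusted p = 0.0012), and it kept both calls whichever array was left out. Without replicate 2 of E50, whose background was the lowest of the stage, the bounds were 1.39-fold and 1.64-fold. The other POLE2 probe set, above background on 1 E50 array, also had higher means at both later stages. It was not called against E50 (adjusted p = 0.143 at E60 and 0.102 at E70 in limma). POLE4, a small histone-fold subunit of the same enzyme, had 7493, 7929 and 4571 at E50, 2793, 2761 and 2934 at E60 and 3116, 2473 and 2919 at E70. POLE4 fell by 1.20 (SE 0.27) at E60 against E50 (adjusted p = 0.0237), while its histone-fold partner POLE3 gave 1636, 1902 and 1523 at E60 against 2619, 1714 and 1406 at E50, with overlap and no call. POLD4, the smallest subunit of DNA polymerase delta, had 1010, 1104 and 791 at E50, 422, 473 and 507 at E60 and 435, 543 and 377 at E70, and fell by 1.04 (SE 0.25) at E60 against E50 (adjusted p = 0.0272). POLE4, POLD4 and ORC6 each lost the call at E60 against E50 when any 1 of the 3 E60 arrays was left out. Their calls also ended with median centring, in the fit of those 2 stages alone and with the replicate number as a block.

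Of the 4 subunits of the MCM helicase that were measured, MCM4 alone was called against E50. MCM4 lay at 8.78, 10.7 and 11.3 on the E50 arrays, under their background, and at 45.2, 69.2 and 70.6 on the E60 and 107, 130 and 66.7 on the E70 arrays. Because the mean of these later signals does not exceed that of the E50 background, no minimum fold can be given for the call (adjusted p = 0.00384 at E60), and the other MCM4 probe set, below background at all stages, had a fitted change of the opposite sign. The MCM4 call at E60 ended with a floor of 32 (adjusted p = 0.0593) and with the mean of both probe sets (adjusted p = 0.309). MCM2 had 712, 1072 and 917 at E60 against 1427, 886 and 988 at E50, and MCM3 had 490, 545 and 497 at E60 against 708, 646 and 334 at E50, with overlap in both. For MCM5 the E60 arrays, at 523, 593 and 442, all lay below the E50 arrays, at 1047, 966 and 690, but the change of -0.78 (SE 0.26) was not called (adjusted p = 0.0763).

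PCNA, the sliding clamp that holds the polymerases on DNA, had its highest signals at E60: 2117, 1951 and 1843 at E50, 3596, 2677 and 3494 at E60 and 1851, 2165 and 2135 at E70. All 3 E60 arrays stood above the 6 others. The change at E60 against E50 was 0.71 (SE 0.22) on the log2 scale and missed the threshold (adjusted p = 0.0614).

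**Figure D3:**
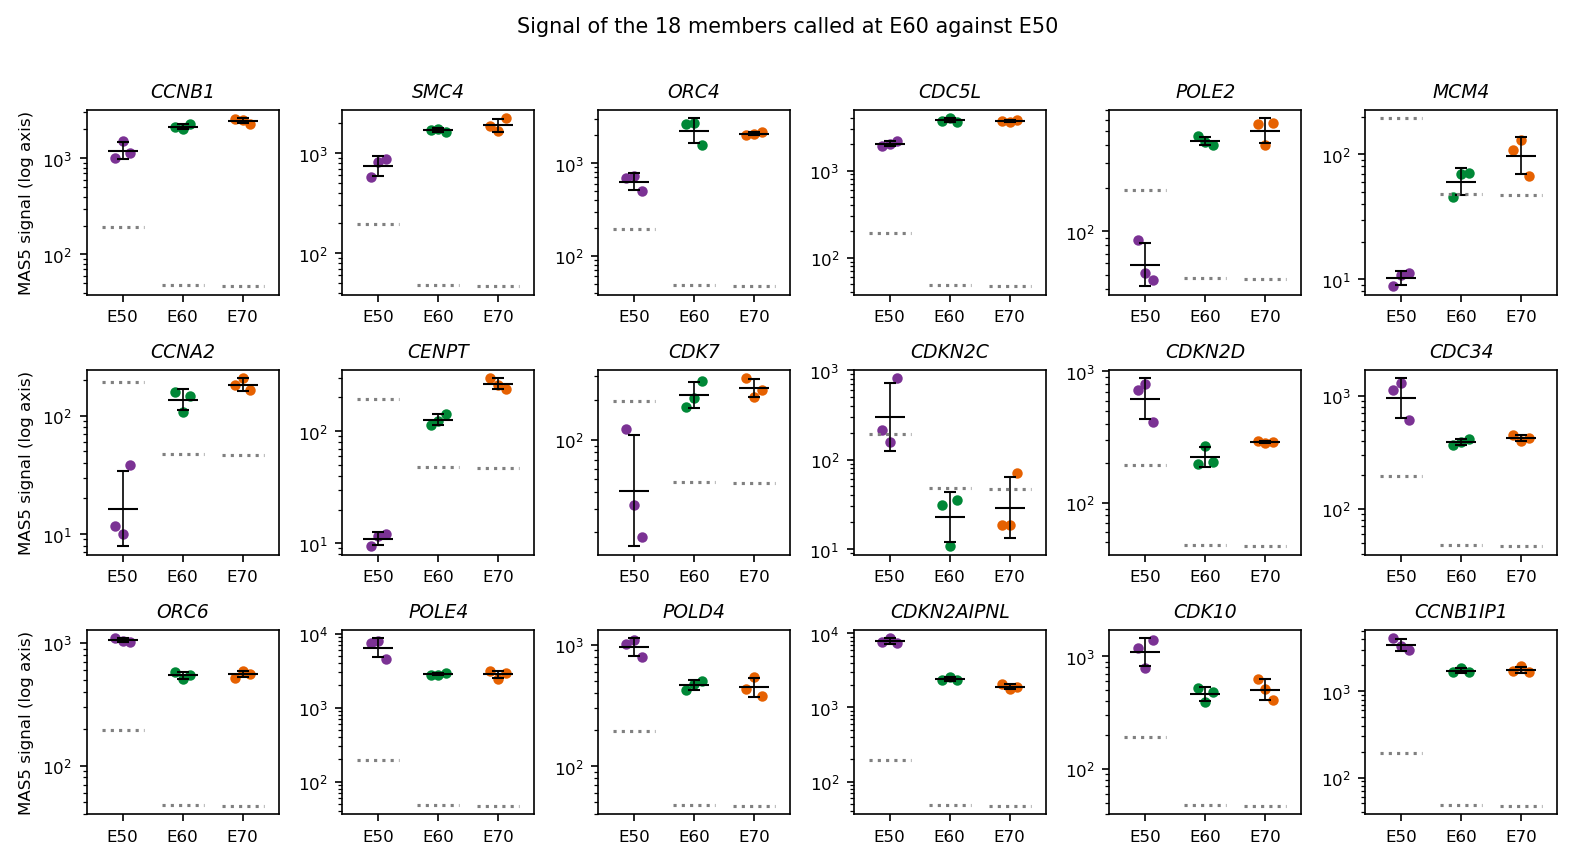
Signal on each array (points, logarithmic axis that differs between panels) at E50, E60 and E70 for the 18 members called at E60 against E50; black bars give the geometric mean and 1 SD on the log2 scale (n = 3), and dotted lines the mean array background of the stage. In the first 4 panels all stages lie above background, as for ORC4 (499 to 726 at E50 and 1583 to 2691 at E60), whereas POLE2, MCM4, CCNA2, CENPT and CDK7 lie below it on all E50 arrays.

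Among genes of mitosis, cyclin B1 rose and cyclin B2 did not pass the test. CCNB1, the cyclin that drives entry into mitosis with CDK1, had 1009, 1509 and 1130 at E50, 2119, 2001 and 2249 at E60 and 2548, 2528 and 2279 at E70. Its rise at E60 against E50 was 0.82 (SE 0.23, adjusted p = 0.0457 in limma), a call absent from 8 of the 9 fits with an array removed. At E70 against E50 the rise was 1.03 (adjusted p = 0.0214). Among the fits with an array removed, the E70 call was lost only where an E70 array was left out. It also ended with array weights, in the fit of those 2 stages alone and with the replicate number as a block. CCNB2 gave 499, 516 and 606 at E50, 611, 606 and 589 at E60 and 737, 708 and 766 at E70, with a change of 0.16 (SE 0.20) at E60 against E50.

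Cyclin A2, which acts in S phase and at mitotic entry, was called higher although its E50 signals of 11.6, 10.1 and 38.1 were all below background. CCNA2 had 158, 108 and 147 at E60 and 181, 208 and 164 at E70, within the range of the E50 background, so no minimum fold can be given (adjusted p = 0.00872 at E60). BUB3, a protein of the spindle checkpoint, had 3612, 3224 and 3528 at E60 against 1636, 2333 and 2400 at E50, without overlap but without a call (adjusted p = 0.0722). The Aurora kinases AURKA and AURKB, which act at spindle poles and at centromeres, were not called and their E60 and E50 arrays overlapped: AURKB read 276, 372 and 355 at E60 against 356, 590 and 308 at E50.

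In the group of chromosome structure genes, SMC4, the core ATPase shared by both condensin complexes that compact chromosomes, had 574, 805 and 880 at E50, 1711, 1749 and 1613 at E60 and 1882, 1648 and 2225 at E70. It rose by 1.19 (SE 0.25) at E60 and by 1.36 (SE 0.25) at E70 against E50 (adjusted p = 0.0182 and 0.0106), and at E70 the call held whichever array was removed, though not in the fit of those 2 stages alone. The second SMC4 probe set moved the same way, with 1452, 1328 and 1063 at E60 against 269, 523 and 650 at E50. TOP2A, the topoisomerase that untangles replicated chromosomes, was also above its E50 signals at both later stages, without a call, with 2907, 3321 and 2701 at E50, 4599, 4984 and 4439 at E60 and 4471, 4744 and 4125 at E70, and a change of 0.65 (SE 0.20) at E60 against E50 (adjusted p = 0.0628).

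CENPT, a centromere protein that links the chromosome to the kinetochore, had the smallest adjusted p of any member. It read 9.44, 11.6 and 12.2 at E50, 114, 123 and 144 at E60 and 297, 260 and 238 at E70. The E50 signals were under background, so the call at E60 (adjusted p = 0.000598) has no minimum fold, while at E70 CENPT was at least 1.36-fold higher than at E50 (adjusted p = 0.000213), a bound that is under 1 without replicate 2 of E50. The condensin II subunit NCAPH2 was not called and read 94.5, 161 and 216 at E60 against 327, 252 and 396 at E50.

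Some called genes carry cell cycle names but are best known for other work. CDKN2AIPNL, a small protein similar to the start of the ARF-binding protein CDKN2AIP, had 7568, 8654 and 7469 at E50, 2330, 2597 and 2351 at E60 and 2080, 1790 and 1877 at E70. Its fall of 1.70 (SE 0.20) at E60 against E50 (adjusted p = 0.00301) was the only fall among the members that kept its call whichever array was left out, and it was 2.04 at E70 against E50 (adjusted p = 0.00119). CDC5L, a core splicing factor, had 1890, 2034 and 2202 at E50, 3732, 3984 and 3657 at E60 and 3672, 3650 and 3817 at E70, and rose by 0.89 (SE 0.19) at E60 against E50 (adjusted p = 0.0201). That call ended in 7 of the 18 alternatives, quantile normalization among them. A second CDC5L probe set rose by 0.58 at E60 without a call (adjusted p = 0.115 in limma) and was called at E70 against E50 (change 0.90, adjusted p = 0.0311). CDK10, a kinase partnered by cyclin M, read 523, 392 and 488 at E60 against 1181, 793 and 1392 at E50 and fell by 1.24 (adjusted p = 0.0298). CCNB1IP1, a ubiquitin ligase needed for meiotic crossing over in mice, read 1654, 1857 and 1683 at E60 against 4140, 3344 and 2987 at E50 and fell by 1.00 (adjusted p = 0.0217). At E60 against E50 the CDK10 call ended in 8 of the 18 alternatives and the CCNB1IP1 call in 7. Median centring and array weights were among them for both.

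Late bell against cap gave a similar count, with 9 members higher and 11 lower at E70 than at E50 (12% and 14.7%, against 8.16% and 10.6% of all probe sets and 7.33% and 14.3% of all genes by brightest probe set) and a median change of 0.22, that of all probe sets being -0.11. This comparison shares the E50 arrays with the one above, so it is no separate evidence, and the 18 members called at E60 against E50 were called the same way here. The 2 additional falls were of effectors of the small GTPase CDC42, which shapes the actin cytoskeleton. CDC42EP1 read 44.9, 252 and 232 at E70 against 654, 879 and 1217 at E50 (change -2.69, SE 0.66, adjusted p = 0.0291), with replicate 1 of E70 below background. Without that array the CDC42EP1 change was -1.88, and 5 of the 9 fits with an array removed gave no call. CDC42EP5 read 189, 227 and 214 at E70 against 773, 677 and 307 at E50 (change -1.38, SE 0.38, adjusted p = 0.0453), and 8 of the 9 fits with an array removed gave no call. Median centring gave 22 higher and 2 lower here.

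Between bell and late bell no member passed the threshold in either direction, in a comparison where 0.0833% of all probe sets were called higher and 0.338% lower. These are 20 and 81 probe sets, from a fit that pools the spread of all 9 arrays, the wider E50 spread included. Fitted on those 2 stages alone, 186 probe sets were called higher and 234 lower, again with no member. In the fit of all 9 arrays, 3 of the 75 had p under 0.05 by limma without adjustment, which were CENPT, MCM5 and PCNA. With weights for array quality 2 members were called higher, MCM5 and CENPT, and with signals under 32 set to 32, 1 was called higher, CENPT. The median change of the members was 0.13 and that of all probe sets 0.05, and 47 of the 75 changes were positive. All E70 arrays lay above all E60 arrays for 19 members (25.3%), against 15.7% of all probe sets and 18.4% of all genes by brightest probe set. The E60 arrays are shared with the first comparison, so a high or low E60 signal enters both with opposite sign.

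All 4 measured MCM subunits had higher geometric means at E70 than at E60, without a call. MCM5 had 1111, 840 and 976 at E70 against 523, 593 and 442 at E60, with no overlap and a change of 0.91 (SE 0.26, adjusted p = 0.342 in limma), and a second MCM5 probe set had 284, 300.5 and 281 at E70 against 207, 330 and 171 at E60, with overlap. MCM2 had 1382, 1243 and 1157 at E70 against 712, 1072 and 917 at E60, again without overlap, and a change of 0.50 (SE 0.28). Of the other MCM2 probe sets, one had the same order, and a dim one had 33.9, 38.5 and 38.8 at E70 against 50.1, 56.3 and 53 at E60, with a change of -0.52. MCM3 and MCM4 overlapped between the stages, with changes of 0.29 (SE 0.35) and 0.69 (SE 0.33). CDC45, which joins the MCM ring in the active helicase, had 1127, 920 and 834 at E70 against 787, 712 and 710 at E60, with no overlap and no call.

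PCNA had the opposite order. Its signals of 1851, 2165 and 2135 at E70 all lay below those of 3596, 2677 and 3494 at E60, and the change was -0.66 (SE 0.22, adjusted p = 0.454 in limma). CENPT had 297, 260 and 238 at E70 against 114, 123 and 144 at E60, all above background, and a change of 1.06 (SE 0.22, adjusted p = 0.169). With array weights CENPT and MCM5 reached adjusted p = 0.0133 and 0.0332, and PCNA reached 0.0814.

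CDK2, the kinase of S phase entry, and AURKB showed E70 arrays above E60 arrays without overlap: CDK2 had 1815, 1429 and 1374 at E70 against 999, 1167 and 871 at E60 (change 0.60, SE 0.27), and AURKB had 549, 489 and 555 at E70 against 276, 372 and 355 at E60 (change 0.68, SE 0.30). The inhibitor CDKN1B did too, with 1220, 1856 and 2063 at E70 against 1113, 1181 and 1190 at E60 (change 0.53, SE 0.26). Of the other CDK2 probe sets, one had a change of 0.18 and a dim one a change of -1.19, both with overlap. With the mean over its probe sets the CDK2 change turned negative. Among mitotic cyclins, CCNB2 had 737, 708 and 766 at E70 against 611, 606 and 589 at E60 (change 0.29, SE 0.20). For TOP2A the interval of the change between these stages ran from -0.55 to 0.40 on the log2 scale, and for CCND2 from -0.34 to 0.70. None of these changes was called, and intervals of this width leave room for changes in either direction for TOP2A and CCND2. The intervals also carry the spread of the E50 arrays.

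**Figure D4:**
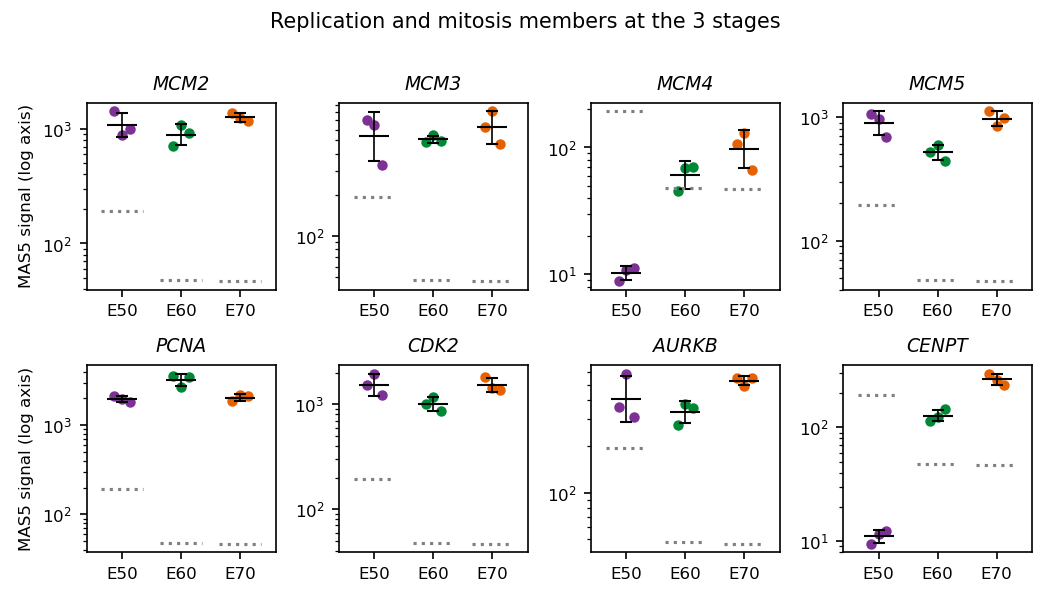
Signal on each array (points, logarithmic axis that differs between panels) at E50, E60 and E70 for 4 MCM subunits, PCNA, CDK2, AURKB and CENPT; black bars give the geometric mean and 1 SD on the log2 scale (n = 3), and dotted lines the mean array background of the stage. PCNA is highest at E60 (2677 to 3596), while MCM5 (442 to 593) and CDK2 (871 to 1167) are lowest there; no E70 minus E60 change was called.

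A wider list of cell cycle genes that the naming rule does not reach was measured for 68 of 135 listed genes. At E60 against E50, 7 were called higher and 6 lower (10.3% and 8.82%, against 7.85% and 10.6% of all probe sets). None was called at E70 against E60, and 12 were higher and 6 lower at E70 than at E50 (17.6% and 8.82%, against 8.16% and 10.6%). The 28 genes of mitosis and cytokinesis among them had 5 higher and 3 lower at E60 than at E50, with a median of 0.51, and 8 higher and 2 lower at E70, with a median of 0.52. The largest fitted rises were of genes at or below background on most E50 arrays. NUF2, a kinetochore protein, had 652, 691 and 711 at E60 against 75.5, 238 and 20.5 at E50 (adjusted p = 0.0271). GINS3, a subunit of the active helicase, had 137, 127 and 161 at E60 and 132, 104 and 241 at E70, against 40.6, 13 and 18.8 at E50, and was called at both stages with no minimum fold. TYMS, which makes thymidylate for DNA synthesis, had 647, 539 and 411 at E70 against 152, 128 and 19 at E50 (adjusted p = 0.0357). The cohesin loader NIPBL, with 2690, 1963 and 2575 at E60 against 610, 815 and 772 at E50, rose by 1.72 on the log2 scale (adjusted p = 0.00739). CKS1B, a small partner of the CDKs, had 2595, 2348 and 2264 at E60 against 6380, 7774 and 6142 at E50 and fell by 1.49 (adjusted p = 0.0142). FOXM1, a transcription factor that drives mitotic genes, had 129, 72.2 and 104 at E60 against 320, 267 and 419 at E50 and fell by 1.74 (adjusted p = 0.0107). On replicates 1 and 3 of E50 its signals were close to the array background, 248 and 379, and the E60 background was lower.

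Marker genes of several tissues differed between the same stages. Of 9 measured epithelium markers, the summed signal spanned 9195 to 13629 for E50, 13533 to 14459 for E60 and 28332 to 31256 for E70, and 4 were called higher at E70 than at E50 but none at E60 than at E50 or at E70 than at E60. The 14 mesenchyme markers spanned 326377 to 368273 for E50, 206541 to 213000 for E60 and 129015 to 175532 for E70. Of these markers 3 were higher and 3 lower at E60 than at E50, with a median change of -0.06, and 7 were lower at E70. The summed signal of all probe sets was also lower after E50. It spanned 3.25e+07 to 3.31e+07 for E50, 1.99e+07 to 2.03e+07 for E60 and 1.91e+07 to 2.05e+07 for E70. The 23 skeletal muscle markers spanned 15193 to 19065 for E50, 5934 to 6512 for E60 and 3089 to 3344 for E70, with 12 lower at E60 and 15 lower at E70 than at E50, and 4, 4 and 6 of them lay below background on all arrays of the stage. Of 8 tooth germ markers measured, the odontogenic genes MSX1, DLX5, BMP4 and LEF1 were above background on all 9 arrays, and the enamel gene AMELX on all arrays only at E70. At E70 against E50, macrophage and blood markers had 2 higher and 6 lower of 12, endothelium markers none higher and 3 lower of 11, nerve markers 1 higher and 2 lower of 9 and tooth germ markers 3 higher and 1 lower of 8, where 8.16% of all probe sets were higher and 10.6% lower. The part of these differences in the changes of the cell cycle genes was not tested.

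**Figure D5:**
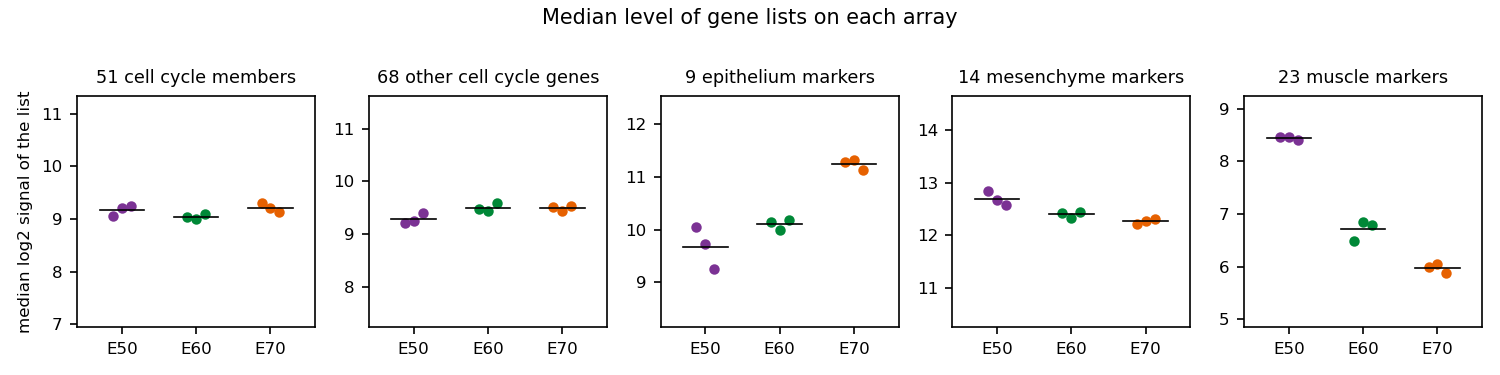
Median log2 signal of 5 gene lists on each array (points) with the mean of the 3 medians (line) at E50, E60 and E70; every panel spans the same number of log2 units. The epithelium markers lie highest at E70 and the muscle markers are lower at each later stage, while the mean medians of the 51 members with a cell cycle role are 9.17 at E50, 9.04 at E60 and 9.21 at E70.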

How the data were processed

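RNA from whole molar germs was measured on Affymetrix Porcine Genome Arrays (9 arrays, 3 per stage, grouped by the labels). The deposited intensity values are linear MAS5 signals per probe set, which the authors computed in GeneSpring with each array scaled to 1 target; the labels name MAS5 with no version. Arrays have no depth, and their number limits the precision. Of 24123 probe sets 124 array controls were set aside. Signals were raised to at least 1 before the log2 transform. One limma 3.58.1 fit of all 9 arrays (R 4.3.3, lmFit and eBayes, tested on simulated data) gave the 3 changes, with Benjamini-Hochberg adjustment over 23999 probe sets. Symbols came from the platform table (10069 probe sets with 1 symbol, 198 with several, 13732 with none), and all 75 members matched the pig RefSeq gene table of assembly Sscrofa11.1. Where a stage was below background on all arrays, the bound compares the other stage's geometric mean with that background. Array values are given for called members, cyclins, MCM genes, PCNA and TOP2A, and for some uncalled members named beside them after their values were seen; other cell cycle genes were named from the 6 largest called changes per comparison. The members, lists and rules were chosen with earlier results of these data known. Alternatives were other scalings, a higher floor, a filter on dim probe sets, a variance trend, array weights, fits of 2 stages, a replicate block, means over probe sets and leaving out each array.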

Additional observations from a re-analysis of the deposited data

How the results depend on the processing

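The counts of called members moved with the processing, while no called member changed direction in any alternative run. Uncalled members did, 22 of 75 with median centring at E60 against E50. Array weights gave 4 higher and 4 lower members at E60 against E50, 5 and 3 at E70 against E50, and 2 higher at E70 against E60. Median centring gave 21 and 2 at E60 against E50 and 22 and 2 at E70 against E50, with median changes of 0.79 and 0.93, and quantile normalization gave median changes of 0.13 and 0.12. Fits of 2 stages alone gave 2 lower at E60 and 1 lower at E70 against E50. A floor of 32 gave 1 higher member at E70 against E60. The same replicate numbers did not pair the arrays (correlations of deviations from -0.02 to 0.03), and with the replicate number as a block there were 5 higher and 3 lower at E60, and 6 higher and 3 lower at E70, against E50. Leaving out 1 array gave 5 to 11 higher and 1 to 12 lower at E60 against E50, 6 to 11 higher and 2 to 11 lower at E70 against E50, and none at E70 against E60. The lower calls fell to 1 or 2 at E60 when any E60 array was left out and to 2 or 3 at E70 when any E70 array was. The median changes ranged from -0.037 to 0.11 at E60 and from 0.14 to 0.31 at E70 against E50 in these fits, and from 0.08 to 0.18 at E70 against E60. The cause of these changes was not tested. Signal over background at E50 limits what can be said of the 18 members above it on only some arrays there and the 9 above it on none.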
